A study of Mus musculus with 18 samples.

Results

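The genes described here are the apolipoproteins and the proteins that assemble very low density lipoprotein (VLDL) in the liver. They are *Apoa1*, *Apoa2*, *Apoa4*, *Apoa5*, *Apob*, *Apoc2*, *Apoc3*, *Apoe*, *Mttp* and *Tm6sf2*, 10 of the 23352 gene symbols in the tables. They were chosen by name and not by a cut on their values, although earlier results of these data were known. Each had a single entry, a valid estimate in all 18 livers and a mean above the minimum for testing, so all 10 were among the 10835 genes tested. The study profiled poly(A) RNA of male C57BL6 mice of 20 weeks on a high-fat diet (HFD) and asked how loss of *Gpr180*, a G protein-coupled receptor gene, alters the liver. The wild-type group held 9 mice and the *Gpr180*KO group held 9, and every mouse gave 1 library. The knockout was made by CRISPR/Cas9, removes an exon of *Gpr180* in the whole body, and was compared with wild-type mice bred from heterozygous matings. Because the deletion is global, a difference in the liver need not arise in liver cells, and because whole liver was used, fewer cells of a type and less RNA per cell cannot be told apart. The targeted gene was read at 6.79 ± 1.99 FPKM in the wild-type group against 1.60 ± 0.37 FPKM in the *Gpr180*KO group (mean ± SD of 9 livers each), and all 9 *Gpr180*KO livers lay below all wild-type livers.

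The liver exports triglyceride in VLDL. Each particle is built around a single molecule of apolipoprotein B (*Apob*), which receives its lipid in the endoplasmic reticulum from microsomal triglyceride transfer protein (*Mttp*), and TM6SF2 (*Tm6sf2*) is a membrane protein needed for loading the particle fully. Exchangeable apolipoproteins sit on the surface. *Apoa1* and *Apoa2* encode the main proteins of high density lipoprotein (HDL), *Apoa4* encodes a protein of triglyceride-rich particles, and *Apoe* encodes the ligand by which remnants are cleared. Lipolysis in plasma is set by an activator of lipoprotein lipase (*Apoc2*), an inhibitor (*Apoc3*) and an enhancer (*Apoa5*). *Apoa1*, *Apoc3*, *Apoa4* and *Apoa5* form a cluster on chromosome 9, and *Apoe*, *Apoc1* and *Apoc2* form another on chromosome 7.

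Values are FPKM, reads scaled by the length of the transcript and by the mapped reads of the library. The sum of FPKM per library ran from 554796 to 629067 in 17 livers and was 718746 in the *Gpr180*KO liver KOhfd51. Read counts were not in the tables. From the ratio of FPKM among genes with few reads, wild-type libraries had 60.8% to 100% (median 74.8%) and *Gpr180*KO libraries 44.3% to 93.5% (median 68.2%) of the depth of the deepest library, which places KOhfd51 at 68.2%. Sample titles come in 2 styles, one ending in HFD (4 livers per genotype, W317HFD to W320HFD and KO319HFD to KO322HFD) and one beginning with WThfd or KOhfd (5 livers per genotype). What the styles mark is not given in the labels, so genotype comparisons were also computed within each style. Correlations were centred on genotype and style and not computed within a style. Hepatocyte markers were abundant in every liver (summed FPKM of 10 genes 10967 to 19910.0), and among 8 markers of intestinal epithelium, the other main source of several of these apolipoproteins, 7 had a mean under 1 FPKM and *Sis*, *Cdx1* and *Reg3g* were 0 in all livers, with *Fabp2* making up nearly all of the sum (193 to 430.0).

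Sequence before the start sites was taken from RefSeq (GRCm38.p6), which had an entry for 8 of the 10 genes. *Apoa4* and *Mttp* are shown because the comparison of genotypes below turns on them, and *Apob* and *Apoa5* because they carry a TATA box close to the start. Each run holds the 250 bases before the start, 5′ to 3′ on the strand of the gene, with TATAAA in capitals. The windows are chr9:46240594-46240843, plus strand for *Apoa4*, chr3:138143419-138143668, minus strand for *Mttp*, chr12:7977427-7977676, plus strand for *Apob* and chr9:46268358-46268607, plus strand for *Apoa5*.
Apoa4: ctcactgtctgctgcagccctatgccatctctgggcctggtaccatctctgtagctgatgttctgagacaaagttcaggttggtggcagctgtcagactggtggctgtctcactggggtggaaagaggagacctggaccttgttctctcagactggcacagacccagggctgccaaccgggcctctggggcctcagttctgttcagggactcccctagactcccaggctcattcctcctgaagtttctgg
Mttp: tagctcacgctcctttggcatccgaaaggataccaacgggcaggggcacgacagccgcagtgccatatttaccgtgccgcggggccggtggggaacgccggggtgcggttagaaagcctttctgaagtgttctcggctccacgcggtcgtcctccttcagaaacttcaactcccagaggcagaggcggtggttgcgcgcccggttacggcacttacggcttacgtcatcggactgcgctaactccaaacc
Apob: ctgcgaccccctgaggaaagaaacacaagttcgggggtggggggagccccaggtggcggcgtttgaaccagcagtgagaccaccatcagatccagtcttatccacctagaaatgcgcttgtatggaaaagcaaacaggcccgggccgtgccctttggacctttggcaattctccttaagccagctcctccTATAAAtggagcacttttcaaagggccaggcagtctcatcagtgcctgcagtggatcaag
Apoa5: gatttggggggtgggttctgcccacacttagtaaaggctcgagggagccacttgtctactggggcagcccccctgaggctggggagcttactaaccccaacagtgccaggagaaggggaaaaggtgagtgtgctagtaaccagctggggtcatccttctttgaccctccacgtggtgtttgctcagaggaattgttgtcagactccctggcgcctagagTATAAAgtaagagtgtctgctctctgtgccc
Searched on both strands, the TATA box TATAAA was found in 3 of the 8 windows, with its first base at -31 from the start in *Apoa5*, -60 in *Apob* and -212 in *Apoa2*, against 12.4% of the 32851 RefSeq windows of this length. The HNF4 core CAAAGTCCA was in 0 of 8 (0.384% of all windows), the HNF1 half-site GTTAAT in 1 of 8 (6.43%) and the nuclear receptor half-site AGGTCA in 1 of 8 (14.0%), both in *Apoc2*. The RefSeq start used for *Apoc2* lies 1077 bases from its deposited 5′ end, against at most 30 bases for the other windows. The *Apoc2* window (chr7:19677942-19678191) also reaches into the gene *Apoc4* (19678084 to 19681460), so these matches may not belong to the *Apoc2* promoter in use. The letters searched do not overlap one another. *Apoa4* and *Mttp* thus had none of the 4 motifs in the 250 bases shown. A match describes letters only, and an absent match says nothing of the factor.

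In wild-type livers *Apoe* was the highest of the 10 (15875 ± 1076 FPKM, SD, n = 9), ahead of *Apoa2* (15234 ± 3002), *Apoa1* (7644 ± 1021), *Apoc3* (3242 ± 869.8) and *Apoa4* (2507 ± 982). *Apoc2* (1073 ± 193), *Apob* (709.5 ± 74.4) and *Apoa5* (597 ± 52.7) followed, and the assembly factors *Mttp* (115 ± 7.02) and *Tm6sf2* (19.4 ± 4.19) were lowest. FPKM is a level per length of transcript, so the genes can be ordered by it, and by their mean over all livers *Apoe*, *Apoa2* and *Apoa1* ranked 2, 3 and 6 among all genes with valid estimates. Ranges of neighbours did not overlap between *Apoa2* and *Apoa1*, *Apoa1* and *Apoc3*, *Apoa5* and *Mttp*, and *Mttp* and *Tm6sf2*. They did overlap for *Apoe* and *Apoa2*, for *Apoc3* and *Apoa4*, and along the run from *Apoa4* through *Apoc2* and *Apob* to *Apoa5*. The order of *Apoc3* and *Apoa4* also depended on the column used. For *Apoa2*, *Apoc3* and *Apoc2* the FPKM exceeded the midpoint of its own deposited bounds by a median factor of 1.63, 1.61 and 1.46, for *Mttp* by 0.994, and by nearly the same factor in every liver, which leaves comparisons between livers untouched but not those between genes. By that midpoint *Apoa4* (mean 2210.3) stood above *Apoc3* (2006). Together the 10 genes made up 8.25 ± 0.689% of the FPKM sum in wild-type and 8.45 ± 1.64% in *Gpr180*KO livers (n = 9 each), with the highest share in KOhfd51 (12.2%).

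**Figure D1:**
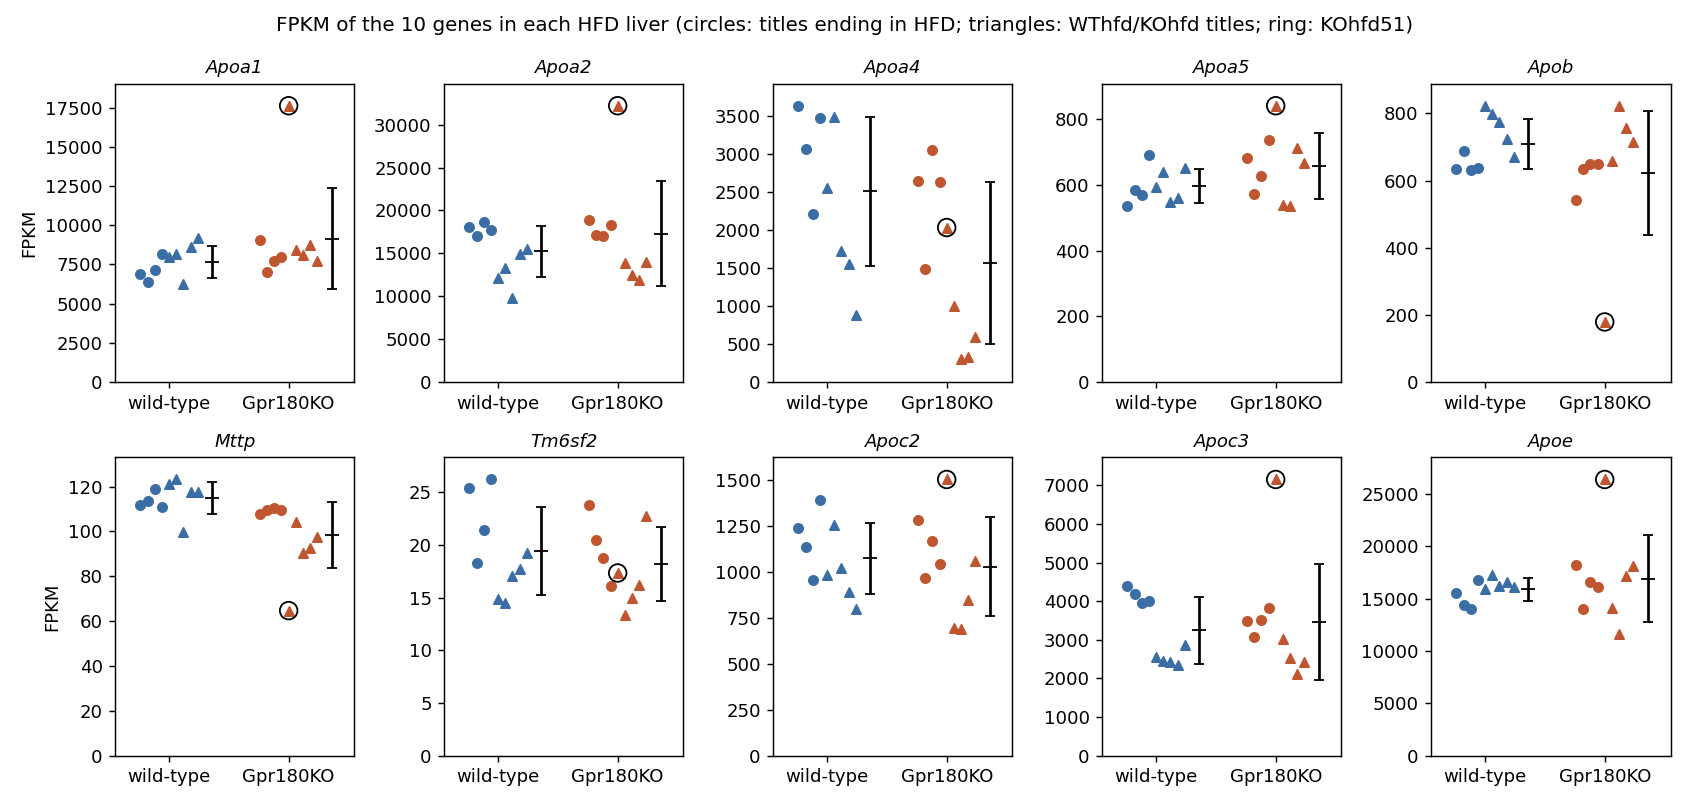
FPKM of each gene (vertical axes, linear, from 0) in the 9 wild-type (blue) and 9 *Gpr180*KO (orange) HFD livers, with circles for titles ending in HFD, triangles for WThfd or KOhfd titles, a ring around KOhfd51, and black bars for the mean and SD of each genotype. The genotypes overlap in every panel, KOhfd51 is the highest liver for 6 of the 10 genes and the lowest for *Apob* and *Mttp*, and the triangles of *Apoa2* and *Apoc3* lie below the circles in wild-type.

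KOhfd51 stood apart before any comparison of genotypes. Against the mean of the other 4 KOhfd livers it was 2.14-fold for *Apoa1*, 2.48-fold for *Apoa2*, 2.86-fold for *Apoc3*, 4.15-fold for *Apoa4*, 1.86-fold for *Apoc2*, 1.76-fold for *Apoe* and 1.38-fold for *Apoa5* (ratios of means on the log scale, 1 library). *Apob*, with the longest exons of the 10 (13934 nt), was 0.243-fold, and *Mttp* (6206 nt) was 0.674-fold. *Tm6sf2* alone of the 10 lay within the range of the other 4 livers, at 17.3 FPKM. Over all tested genes the class medians fell with exon length in this liver. The median log2 difference from the other 4 KOhfd livers was 0.84 for genes with under 1 kb of exons, 0.65 for 1 to 2 kb, 0.19 for 2 to 4 kb, -0.33 for 4 to 8 kb and -0.93 for over 8 kb. Across genes the deviation of KOhfd51 from the gene means correlated with log2 exon length at r = -0.53, where the other 17 libraries had r from -0.10 to 0.24, a description over genes that share a library. The cause was not tested, and the fold change of each of the 10 genes is given below with and without this liver.

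**Figure D2:**
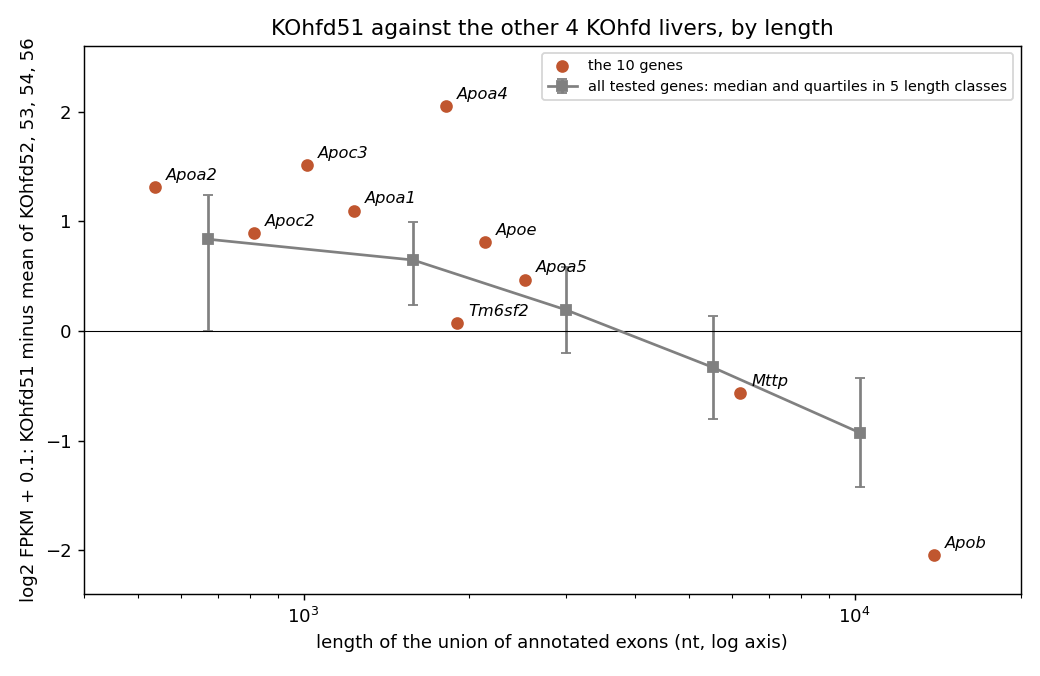
Log2 difference of FPKM + 0.1 between KOhfd51 and the mean of KOhfd52, KOhfd53, KOhfd54 and KOhfd56 (vertical axis) against the length of the union of annotated exons in nt (horizontal log axis), for the 10 genes (orange points) and for all tested genes with a length (grey squares: median, bars: quartiles, in 5 length classes). The class medians fall from 0.84 to -0.93, and *Apob* at -2.04 and *Apoa4* at 2.05 are the most distant of the 10.

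Between genotypes, 0 of the 10 genes passed limma's test across all genes at an adjusted p of 0.05, where 4.28% of all genes tested were called lower and 0.452% higher in *Gpr180*KO livers. At an unadjusted p under 0.05 there were 2 of the 10, *Apoa4* and *Mttp*, against 22.2% of all genes. The median log2 fold change (*Gpr180*KO minus wild-type, of FPKM + 0.1) was -0.02 for the 10 and -0.13 for all genes, so the typical gene was lower in *Gpr180*KO livers by that amount before any gene was singled out, and values of the 10 are to be read against it. Scaled by median of ratios, which set the all-gene median to -0.01, the median of the 10 was 0.11, and all genes gave 171 lower and 112 higher calls in place of 464 and 49. The only setting with calls among the 10 left out KOhfd51 and held title style as a block, an alternative chosen after the data were seen. It called *Apoa4* and *Mttp* lower, 2 of 10 where 16.2% of all genes were called lower. No gene of the 10 separated the genotypes without overlap, as 0.231% of all genes did.

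**Figure D3:**
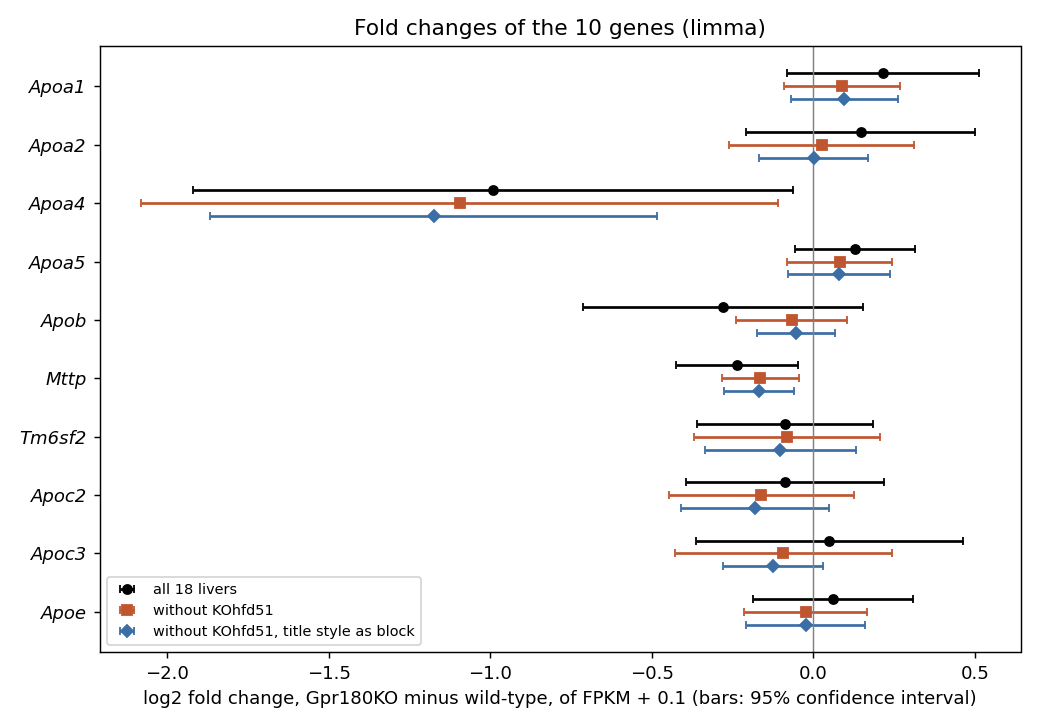
Log2 fold change of FPKM + 0.1 (horizontal axis, *Gpr180*KO minus wild-type, limma) for each of the 10 genes, with bars for the 95% confidence interval, over all 18 livers (black), without KOhfd51 (orange) and without KOhfd51 with title style as a block (blue). *Apoa4* lies farthest from 0 in all 3 fits, and leaving out KOhfd51 narrows the intervals of *Apob*, *Apoa1* and *Mttp*.

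*Mttp*, the lipid transfer protein that loads apolipoprotein B, had the most even levels of the assembly genes. In wild-type livers it was 112 FPKM in W317HFD, 113 in W318HFD, 119 in W319HFD, 111 in W320HFD, 121 in WThfd131, 123 in WThfd133, 99.8 in WThfd134, 118 in WThfd156 and 117 in WThfd157. In *Gpr180*KO livers it was 108 in KO319HFD, 109 in KO320HFD, 110.4 in KO321HFD, 109.5 in KO322HFD, 64.7 in KOhfd51, 104 in KOhfd52, 90.3 in KOhfd53, 92.7 in KOhfd54 and 97.3 in KOhfd56. Except for WThfd134, every wild-type liver was above every *Gpr180*KO liver, and 4 *Gpr180*KO livers lay below WThfd134 too. The log2 fold change was -0.24 (SE 0.09, 95% interval -0.43 to -0.05; limma p = 0.0165, adjusted p = 0.130 over all genes), and the two-sided exact permutation test over 48620 splits of 9 and 9 gave p = 0.00325, which is not adjusted for the number of genes. Within the HFD titles the genotypes of *Mttp* did not overlap, 108 to 110.4 against 111 to 119, although the log2 difference was only -0.06 (exact p = 0.0286, the smallest that 4 against 4 allows). Such a separation of 4 and 4 livers was seen for 14.7% of all genes and for 2 of the 10, *Mttp* and *Apoc3*. Within the WThfd and KOhfd titles it was -0.38 (exact p = 0.0159) and -0.27 without KOhfd51 (exact p = 0.0238). The difference between the styles was not called (limma interaction -0.32, SE 0.16, adjusted p = 0.652, and -0.21 without KOhfd51, SE 0.09, adjusted p = 0.347).

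The size for *Mttp* depended on KOhfd51 and on the scaling. Without KOhfd51 it was -0.16 (SE 0.06, limma adjusted p = 0.0863, exact p = 0.00576), and with title style as a block as well -0.17 (SE 0.05, limma adjusted p = 0.0319). Scaled by median of ratios it was -0.11 (SE 0.08, limma adjusted p = 0.487), and with the length trend of each library removed it was -0.09 (SE 0.06, limma adjusted p = 0.457). Its value relative to the all-gene median of -0.13 was therefore small, and the sign was negative in each of the 37 alternatives. The annotated *Mttp* exons are overlapped on the opposite strand by *Trmt10a* over 7.36% of their length, and the use of strand in counting is not given in the sources used here.

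*Apob*, the scaffold of VLDL, was 631 FPKM (lowest), 689 (median) and 823 (highest) in wild-type and 179, 651 and 822 in *Gpr180*KO livers, and the ranges overlapped except for the lowest liver, KOhfd51, and KO319HFD at 542. The log2 fold change was -0.28 (SE 0.21, limma adjusted p = 0.432) and -0.07 without KOhfd51 (SE 0.08, 95% interval -0.24 to 0.11), so most of the difference in *Apob* rested on 1 library. *Tm6sf2* had 14.4, 18.3 and 26.2 FPKM in wild-type and 13.4, 17.3 and 23.8 in *Gpr180*KO livers. Its log2 fold change was -0.09 (95% interval -0.36 to 0.19, limma adjusted p = 0.703) and -0.08 without KOhfd51 (95% interval -0.37 to 0.20, limma adjusted p = 0.751), with values on both sides of 0 under other scalings.

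*Apoa4* was the member with the widest spread and the largest difference. It was 3632 FPKM in W317HFD, 3061 in W318HFD, 2209 in W319HFD, 3474 in W320HFD, 2549 in WThfd131, 3479 in WThfd133, 1726 in WThfd134, 1555 in WThfd156 and 879 in WThfd157. In *Gpr180*KO livers it was 2636 in KO319HFD, 1487 in KO320HFD, 3054 in KO321HFD, 2625 in KO322HFD, 2031 in KOhfd51, 997 in KOhfd52, 297 in KOhfd53, 325 in KOhfd54 and 597 in KOhfd56. The 3 lowest *Gpr180*KO livers, all with KOhfd titles, were below every wild-type liver, and no *Gpr180*KO liver exceeded the wild-type range. The means were 2507 ± 982 and 1561 ± 1068 FPKM (SD, n = 9 each), and the log2 fold change was -0.99 (SE 0.44, 95% interval -1.92 to -0.06; limma p = 0.0375, adjusted p = 0.195), with exact permutation p = 0.0624. Its residual SD within genotype and title style was 0.78 on the log2 scale, above that of 97.3% of the genes tested, and 0.63 without KOhfd51 (97.1%).

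The log2 difference of *Apoa4* was also taken within each title style, and a difference between the styles was not shown. With HFD titles the log2 difference was -0.36 (exact p = 0.286), and with WThfd and KOhfd titles it was -1.50 (exact p = 0.0556) and -1.91 without KOhfd51 (exact p = 0.0238). The interaction was not called with KOhfd51 (-1.14, SE 0.67, limma adjusted p = 0.719) or without it (-1.55, SE 0.56, limma adjusted p = 0.271). Over all livers without KOhfd51 the log2 fold change was -1.09 (limma adjusted p = 0.159, exact p = 0.0518), with title style as a block it was -0.99 (limma adjusted p = 0.0736), and with both -1.17 (SE 0.33, limma adjusted p = 0.0208). Within *Gpr180*KO, KOhfd livers held 0.275-fold the *Apoa4* of the HFD titles, against 0.605-fold between the styles in wild-type, both with overlap. Without KOhfd51 the ratio in *Gpr180*KO was 0.207 and the styles did not overlap, as also for *Apoa2*, *Apob* and *Apoc3*. For *Mttp* in *Gpr180*KO they did not overlap with KOhfd51 included (108 to 110.4 against 64.7 to 104 FPKM) or left out. The share of all genes without overlap was not computed for this comparison, so these separations cannot be read as particular to these genes. Between the styles of wild-type it was 21.2% of all genes tested. Exons of 2 unnamed gene models on the opposite strand, *Gm10680* and *Gm47528*, cover 34.8% and 34.9% of the *Apoa4* exons, and reads of the strands cannot be told apart if strand was not used.

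The HDL apolipoproteins did not differ between genotypes beyond their spread. *Apoa1* was 6268 (lowest), 8006 (median) and 9188 (highest) FPKM in wild-type and 6986, 8091 and 17634 in *Gpr180*KO livers. The medians were alike and the highest value was KOhfd51. The log2 fold change of *Apoa1* was 0.21 (95% interval -0.08 to 0.51, limma adjusted p = 0.379), and 0.09 without KOhfd51 (95% interval -0.09 to 0.27). *Apoa2* was 9818, 15452 and 18649.8 FPKM in wild-type and 11842, 17003 and 32224 in *Gpr180*KO livers, with a log2 fold change of 0.15 (95% interval -0.21 to 0.50, limma adjusted p = 0.619), and 0.03 without KOhfd51 (95% interval -0.26 to 0.31). Title style separated *Apoa2* more than genotype did. In wild-type livers it was 17023 to 18649.8 with HFD titles and 9818 to 15452 with WThfd titles, which did not overlap.

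Of the regulators of lipolysis, *Apoc3* showed the same split. In wild-type livers the lipase inhibitor was 3965 to 4386 FPKM with HFD titles and 2339 to 2866 with WThfd titles, a ratio of 0.609 without overlap, as for 2 of the 10 genes and 21.2% of all genes tested in wild-type. In *Gpr180*KO livers it was 3085 to 3819.8 with HFD titles and 2122 to 3021 in the KOhfd livers other than KOhfd51, which had 7152. Within the HFD titles *Apoc3* was lower in all 4 *Gpr180*KO livers (log2 difference -0.25, exact p = 0.0286, the smallest possible and not adjusted for 10 genes). Within the other style the log2 difference was 0.29 (exact p = 0.540), and -0.01 without KOhfd51 (exact p = 0.937). Over all livers the log2 fold change was 0.05 (SE 0.20, limma adjusted p = 0.895), and -0.09 without KOhfd51. The interaction with title style was 0.55 (SE 0.34, limma adjusted p = 0.733) and 0.24 without KOhfd51 (SE 0.14, limma adjusted p = 0.467), so a difference between the styles was not shown.

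*Apoc2*, the lipase activator, was 799, 1019 and 1392 FPKM (lowest, median, highest) in wild-type and 687, 1040.5 and 1501 in *Gpr180*KO livers. Its log2 fold change was -0.09 (95% interval -0.39 to 0.22, limma adjusted p = 0.735), and -0.16 without KOhfd51 (95% interval -0.45 to 0.12, limma adjusted p = 0.492). *Apoa5*, the lipase enhancer, was 535, 583 and 690.1 FPKM in wild-type and 535, 666 and 841 in *Gpr180*KO livers. Its log2 fold change was 0.13 (95% interval -0.06 to 0.31, limma adjusted p = 0.400) and 0.08 without KOhfd51 (95% interval -0.08 to 0.24, limma adjusted p = 0.550), and after median-of-ratios scaling 0.25 (SE 0.10, limma adjusted p = 0.196). For *Apoc2*, 79.5% of the exon bases are shared on the same strand with the gene model *Gm44805*, so its reads may be split.

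*Apoe*, the ligand for remnant uptake and a product of macrophages as well as hepatocytes, was 13999, 16069 and 17279.7 FPKM in wild-type and 11605, 16544 and 26384 in *Gpr180*KO livers. The wild-type livers were close together, with a coefficient of variation of 6.78%, and the *Gpr180*KO livers spread on both sides of them (24.6%, and 14.7% without KOhfd51). The log2 fold change was 0.06 (95% interval -0.19 to 0.31, limma adjusted p = 0.778) and -0.02 without KOhfd51 (95% interval -0.21 to 0.16). Of 9 macrophage markers tested, 1 was lower (*Cd68*, -0.69, limma adjusted p = 0.0257), 7 had a negative value, and their summed FPKM was 220.4 to 541 (median 432) in wild-type and 258 to 379 (median 295) in *Gpr180*KO livers. Within the HFD titles 6 of the 9 had an unadjusted limma p under 0.05, against 2638 of all 10835 genes. *Lyz2* alone was called lower, against 488 of all genes. Within the other style 1 of the 9 had such a p and 0 were called, against 2019 and 0 of all genes. The median log2 fold change of the 9 was -0.27 against -0.07 for all genes with HFD titles. It was -0.08 against -0.17 with the other style. The part of macrophages in the *Apoe* values was not tested.

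RNA of some markers of other cell types also differed between the groups, where 4.28% of all genes tested were called lower and 0.452% higher. Stellate cell and fibroblast markers were lower in 4 of 8 (*Col1a1*, *Col3a1*, *Dcn* and *Pdgfrb*), with sums of 146 to 281 FPKM in wild-type and 81.9 to 142 in *Gpr180*KO livers, and both biliary markers tested of 5 listed were lower (*Sox9* and *Spp1*). Hepatocyte markers were higher in 2 of 10 (*Hpd* and *Serpina1c*), with sums of 10967 to 15816 and 14189 to 19910.0. The median log2 fold change of the 10 hepatocyte markers was 0.46 against -0.13 for all genes, and 0 of them had a negative value. Without KOhfd51 the median was 0.52 against -0.10, with 2 negative. For the 8 stellate cell and fibroblast markers the median was -0.74, and -0.58 without KOhfd51, with 8 negative in both. The calls of *Sox9* and *Serpina1c* were each lost in 21 of 37 alternatives, among them median-of-ratios scaling, and that of *Serpina1c* also without KOhfd51, whereas that of *Cd68* was lost in 6 and those of the other 6 genes in 1 or 2. None of 6 endothelial markers was called, nor was the 1 gene that could be tested of the lymphocyte, intestinal or adipocyte lists. The adipocyte sum of KOhfd51 was 279 FPKM against at most 46.7 in wild-type. However, 4 of the 5 adipocyte genes listed had a mean under 1 FPKM, and *Plin1* was 0 in all livers. The part of other cell types in the values of the 10 genes was not tested.

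The 6 pairs fixed among the 10 genes were compared across livers after centring on genotype and title style, so that neither could make a correlation. *Apoc2* and *Apoe*, of the same cluster on chromosome 7, varied together over the 18 livers (Pearson r = 0.89, permutation p = 4e-05, adjusted over 6 pairs p = 0.00024; Spearman rho = 0.89, permutation p = 9e-05, adjusted p = 0.00054). Without KOhfd51 r was 0.78 and rho 0.85 (permutation p = 0.00071 and 0.00017, adjusted p = 0.00426 and 0.00102, n = 17). Without the 2 livers farthest from the median, KOhfd51 and KOhfd53, r was 0.82 and rho 0.84 (n = 16). With median-of-ratios scaling r was 0.89 and rho 0.66 (permutation adjusted p = 0.00498 and 0.0746). The relation held within these settings by r, and livers share library and scaling for both genes.

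**Figure D4:**
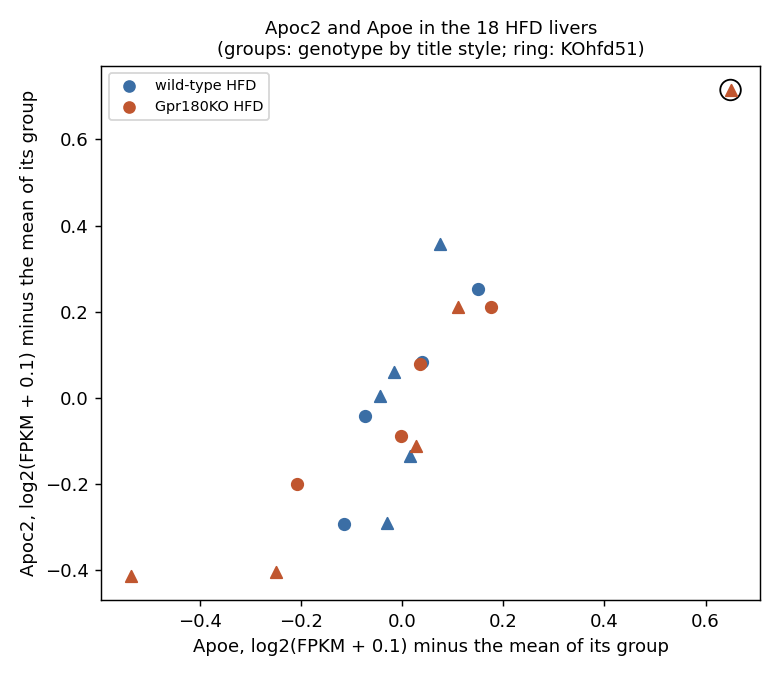
Log2(FPKM + 0.1) of *Apoc2* (vertical axis) and *Apoe* (horizontal axis), each minus the mean of its genotype and title style, in 9 wild-type (blue) and 9 *Gpr180*KO (orange) HFD livers, with circles for titles ending in HFD, triangles for the other style and a ring around KOhfd51. The points follow a rising line from KOhfd53 (-0.41, -0.54) to KOhfd51 (0.71, 0.65), given as *Apoc2* and *Apoe*.

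The other 5 pairs did not pass, although *Apoa1* with *Apoc3* did by r under median-of-ratios scaling (r = 0.87, permutation adjusted p = 0.0458, and 0.0746 for rho). *Apoa1* with *Apoc3*, which run toward each other on opposite strands of chromosome 9, had r = 0.84 (permutation p = 0.0457, adjusted p = 0.0914) and r = 0.19 without KOhfd51. *Apoc3* with *Apoa4* had r = 0.68 (adjusted permutation p = 0.0914) and r = 0.34 without it. *Apob* with *Mttp*, the scaffold and its loading protein, had r = 0.81 (adjusted permutation p = 0.231) and r = -0.24 without it, so these 3 rested on KOhfd51. *Apoa4* with *Apoa5* had r = 0.37, and *Mttp* with *Tm6sf2* r = -0.19.

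Genes with the pattern most like a member were sought among all tested genes by Pearson's r over the centred livers, as a description in which all genes share the libraries. Over 18 livers *Apoa4* was closest to *Cgref1* (r = 0.95), *Nudt18* (0.95) and *Fam131c* (0.94), and *Cgref1* (0.93) and *Nudt18* (0.92) stayed closest without KOhfd51. For the other members the list changed with that liver. *Apob* had *Ranbp2* at 0.99 and *Abhd13* at 0.94 without KOhfd51, and *Mttp* had *Cul4a* at 0.95 and then *Plscr2* at 0.90. *Apoc2* was closest to *Akt1s1* (0.95), and without KOhfd51 to *Pik3ap1* (0.95) and *Cd52* (0.93), a leukocyte surface protein that was itself lower in *Gpr180*KO livers (-0.76, limma adjusted p = 0.0169). *Apoe* was closest to *Syngr2* (0.98) with KOhfd51 and to *Hcfc1r1* (0.97) without it.

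Genes that act beside the 10 were described by lists. Over all genes tested, 4.28% were called lower and 0.452% higher, with a median log2 fold change of -0.13. Of the other apolipoproteins and HDL proteins, 9 of 10 could be tested, 1 rose and 0 fell, and the median log2 fold change was 0.08. The gene that rose was *Apoc1*, which encodes an inhibitor of lipoprotein uptake and lies between *Apoe* and *Apoc2*. It was 7839, 10083 and 11911 FPKM (lowest, median, highest) in wild-type and 11226, 12869 and 23131 in *Gpr180*KO livers, and 6 *Gpr180*KO livers exceeded every wild-type liver. The log2 fold change of *Apoc1* was 0.48 (SE 0.12, limma adjusted p = 0.0357), and 0.39 without KOhfd51 (SE 0.09, limma adjusted p = 0.0234). The call was lost on leaving out W317HFD, W318HFD, WThfd131, WThfd133, WThfd156, KO320HFD or KOhfd53, with limma adjusted p from 0.0511 to 0.0821. In the same cluster *Apoe* at 0.06 and *Apoc2* at -0.09 were not called, and whether they differed from *Apoc1* was not tested.

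Of the 14 genes for processing of plasma lipoproteins, 13 were tested, 2 rose and 0 fell, where 0.452% of all genes were called higher. Their median was -0.13, as for all genes. *Scarb1*, the HDL receptor SR-BI, was 48.9, 59.6 and 68.8 FPKM in wild-type and 71.1, 79.4 and 90.9 in *Gpr180*KO livers. The genotypes thus did not overlap, as for 0.231% of all genes tested. The log2 fold change of *Scarb1* was 0.45 (SE 0.08, limma adjusted p = 0.00677). *Lipc*, hepatic lipase, was 59.5, 69.4 and 84.8 FPKM in wild-type and 77.8, 83.2 and 115 in *Gpr180*KO livers, with 0.35 (SE 0.08, limma adjusted p = 0.0261). Without KOhfd51 these were 0.43 for *Scarb1* and 0.30 for *Lipc*, and both remained past the threshold (limma adjusted p = 0.00824 and 0.0190). The call of *Lipc* was lost without W317HFD, W318HFD, WThfd133 or KOhfd52 (limma adjusted p of at most 0.0629), and that of *Scarb1* held without each liver.

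Of the 14 genes for editing of *Apob* mRNA and for assembly and export of VLDL, all were tested, 1 fell and 0 rose. Over all genes tested, 4.28% were called lower. The median log2 fold change was -0.18 against -0.13 for all genes. *Apobec1*, the enzyme that edits *Apob* mRNA, was 8.43, 10.2 and 10.5 FPKM in wild-type and 5.86, 8.22 and 9.47 in *Gpr180*KO livers. The log2 fold change of *Apobec1* was -0.32 (SE 0.09, limma adjusted p = 0.0498), and the call was lost without any of 13 single livers, KOhfd51 among them (-0.29, limma adjusted p = 0.0502), and under median-of-ratios scaling (-0.19, limma adjusted p = 0.185). Of the 17 transcription regulators of apolipoprotein genes, 1 fell and 0 rose, beside the same 4.28% of all genes called lower. Their median was -0.08 against -0.13 for all genes. *Nr1h4*, which encodes the bile acid receptor FXR, was 48.4, 57.3 and 62.2 FPKM in wild-type and 34.8, 45.9 and 51.3 in *Gpr180*KO livers, and 7 *Gpr180*KO livers lay below all wild-type livers. Its log2 fold change was -0.37 (SE 0.09, limma adjusted p = 0.0281), -0.40 without KOhfd51 (limma adjusted p = 0.0158) and -0.24 under median-of-ratios scaling (limma adjusted p = 0.158), and its call was also lost without W317HFD, WThfd133, KOhfd53 or KOhfd54 (limma adjusted p from 0.0529 to 0.0667). The log2 difference of *Nr1h4* was -0.13 within the HFD titles (exact p = 0.114) and -0.56 within the other style (exact p = 0.00794). The interaction with title style was not called (-0.42, SE 0.15, limma adjusted p = 0.589). Without KOhfd51 it was -0.51 (SE 0.12, limma adjusted p = 0.144).

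**Figure D5:**
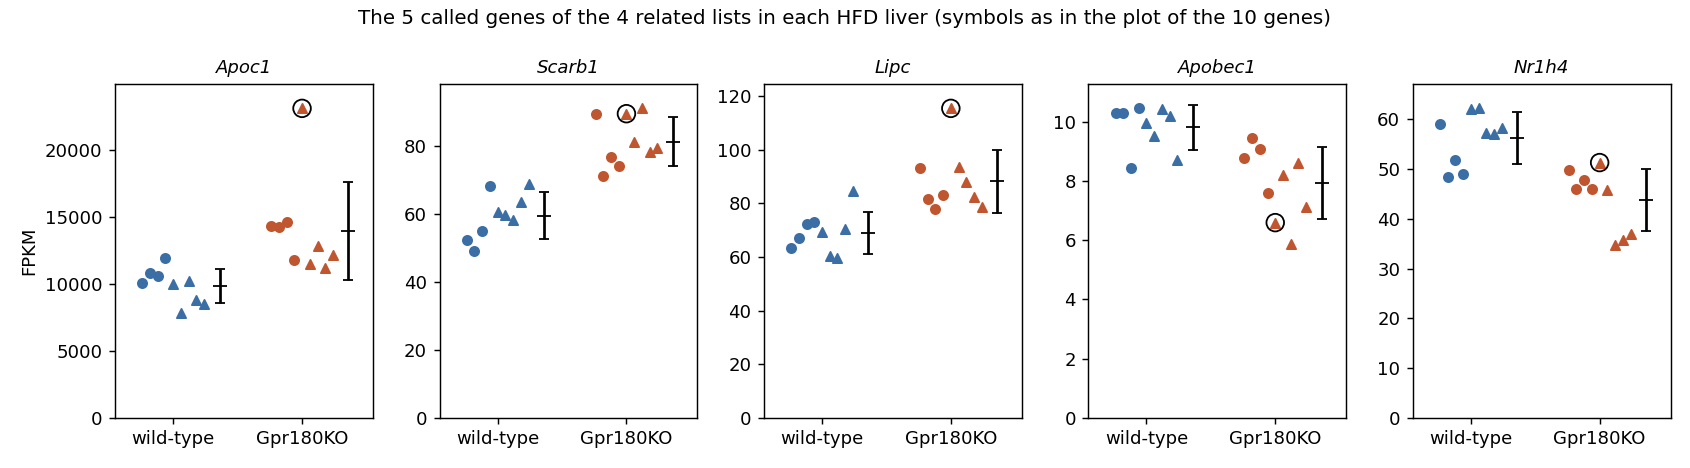
FPKM (vertical axes, linear, from 0) of the 5 called genes of the 4 lists in the 9 wild-type (blue) and 9 *Gpr180*KO (orange) HFD livers, with circles for titles ending in HFD, triangles for the other style, a ring around KOhfd51 and black bars for mean and SD. *Scarb1* separates the genotypes (at most 68.8 in wild-type and at least 71.1 in *Gpr180*KO), and the other 4 genes overlap.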

How the data were processed

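Poly(A) libraries of 18 HFD livers were sequenced by the authors as single reads of 75 bases and aligned to mm10 (GRCm38) with the TopHat Alignment application of Illumina, per the labels and the study's methods, which also name it as the source of the FPKM. FPKM values were deposited by the authors in 1 table per mouse with their lower and upper bounds. The gene annotation, the version and the use of strand are not given in the sources used here. The tables hold no counts, and no columns of other samples were present (0).

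FPKM of rows sharing a symbol were summed (252 symbols), and 24 genes with a failed estimate were left out. Genes with a mean of at least 1 FPKM (10835) were fitted by lmFit and eBayes with trend (limma 3.58.1, R 4.3.3) on log2(FPKM + 0.1), with Benjamini-Hochberg adjustment at 0.05. A fold change on this scale slightly understates that of low genes. Single genes were also tested by a two-sided exact permutation test of mean log2 values, and pairs by 100000 permutations within genotype and title style. The limma and exact p-values set a difference between genotypes against the spread between mice, which limma moderates over all genes fitted. P-values of pairs refer to the permutations. Python 3.11.15 was used with scipy 1.17.1, pandas 2.3.3, numpy 2.4.6 and matplotlib 3.10.9, and the fit was tested on simulated data. Exon lengths came from GENCODE for 94.4% of tested genes, and a start of RefSeq nearest the 5′ end in the tables was used for promoters.

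The genes named were the 10 genes, *Gpr180*, the called genes of each list, and the 3 genes most correlated with each of the 10, of which examples are given. The 10 genes and the lists were chosen with earlier results of these data known. Alternatives were pseudocounts of 1 and 0.01, other FPKM minimums, median-of-ratios, 75th percentile, TPM and top-50-excluded scaling, title style as a block, each style alone, no trend in eBayes, omission of each liver, library weights, and failed estimates set to missing. Leaving out KOhfd51 with a block or with scaling, bound midpoints, and removal of each library's length trend were added after the data were seen. *Apoc3* and *Tm6sf2* promoters were not used here.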

Additional observations from a re-analysis of the deposited data

Results flagged for a closer look

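The FPKM of each of the 10 genes in each genotype gave 20 groups of 9 livers, which were examined for a liver far from the rest, measured as its gap to the nearest liver divided by the range of the group, both on the scale of log2(FPKM + 0.1). Chance alone flags about 5% of such groups, 1 in 20, and 6 were found. In 5 of them the liver was KOhfd51 among the *Gpr180*KO livers, so these are 1 library and not 5 separate events. The gap was 0.723 of the range for *Apoa1* (17634 FPKM, next 9031), 0.532 for *Apoa2* (32224, next 18909.7), 0.516 for *Apoc3* (7152, next 3819.8), 0.727 for *Apob* (179, next 542) and 0.623 for *Mttp* (64.7, next 90.3). The first 3 genes have short exons and were high, and the latter pair have long exons and were low. The sixth was *Mttp* in the wild-type liver WThfd134 (99.8 FPKM, next 111), with a gap of 0.502. On the FPKM scale its gap was 0.476, under the limit, and the 6 groups past that limit were all of KOhfd51, the same 5 genes and *Apoe* (0.552). That liver had no departure by exon length of the size seen in KOhfd51 (correlation across genes with log2 length 0.13 against -0.53). The causes were not tested.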

How the results depend on the processing

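No paired analysis was made because the labels give no pairs across genotypes. What the numbers in the titles mean is not given, and some occur in both genotypes (W319HFD and KO319HFD, W320HFD and KO320HFD). The count of called genes among the 10 stayed at 0 under every alternative except leaving out KOhfd51 with title style as a block, where it was 2, both lower, and it was 0 for each of the 18 livers left out in turn. Over all genes the calls moved more, from 464 lower and 49 higher to 171 and 112 with median-of-ratios scaling, 1031 and 122 with the block, 1161 and 170 with library weights, 750 and 39 with TPM scaling, 1758 and 226 without KOhfd51 with the block, and 0 and 0 with the second title style alone, where 2019 genes had an unadjusted limma p under 0.05. Leaving out single livers gave 116 (WThfd133) to 844 (WThfd157) lower calls. Among 37 alternatives the sign never changed for *Apoa1* (0.09 to 0.34), *Apoa4* (-1.50 to -0.36), *Apoa5* (0.07 to 0.25) and *Mttp* (-0.38 to -0.06). It changed for *Apoa2* with HFD titles alone (-0.0029), for *Apob* with KOhfd51 left out and median-of-ratios scaling (0.0359), and for *Apoc2* with median-of-ratios (0.0367, also with the block) and 75th percentile scaling (0.0061). *Tm6sf2* changed with the same scalings (0.0357 and 0.0052, and 0.0357 with the block), with the second title style alone (0.0053), and with KOhfd51 left out and median-of-ratios scaling (0.0197). *Apoc3* changed with TPM scaling (-0.0064), HFD titles alone (-0.25), library weights (-0.12), and KOhfd51 left out with the block (-0.13), and leaving out single livers gave -0.0929 to 0.126. *Apoe* changed with KOhfd51 left out with the block (-0.0236), and leaving out single livers gave -0.0243 to 0.124. Correlations changed sign for *Apoa4* with *Apoa5* without the 2 farthest livers (-0.14), and for *Apob* with *Mttp* without the 2 farthest (-0.10) and without KOhfd51 (-0.24). Median-of-ratios scaling took *Apoa1* with *Apoc3* past the threshold (r = 0.87, permutation adjusted p = 0.0458). Of 37 alternatives the call was lost in 27 for *Apobec1*, 10 for *Apoc1*, 9 for *Nr1h4*, 6 for *Lipc* and 1 for *Scarb1*. The causes were not tested. The tables hold no counts for intervals of counting error. Lower and upper bounds of each FPKM were deposited, but most genes of the 10 lay outside them. The FPKM was inside in 18 livers for *Mttp*, 16 for *Tm6sf2*, 1 for *Apob* and 0 for each of the others. Precision was therefore judged here by the spread between mice.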
